A study of Petromyzon marinus with 6 samples.

Results

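The transcripts described here are those that took a nearly constant and sizeable share of the RNA-seq fragments of sea lamprey embryos from day 1 to day 5. The unit is the component, all assembled contigs whose identifiers differ in their sequence number alone. Members were selected on their CPM, the summed expected counts of a component per 1000000 expected counts of the library. A member had 50 CPM or more in all 6 libraries, and its highest CPM was at most 1.5 times its lowest. These rules chose 141 of 87262 components, or 0.162%. The level floor alone was met by 1575 components, and 141 of those, 8.95%, were also within the ratio.

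The sea lamprey (Petromyzon marinus) is a jawless vertebrate, and the study followed gene expression over its early development. Whole embryos were taken on days 1 and 2 after fertilization, at day 2.5, and on days 3, 4 and 5, with 1 library per stage, 6 in all. Values given in stage order follow these 6 stages. No strain, genotype or treatment is given in the labels, and no number of embryos or spawnings. Each value therefore rests on 1 library, there is no test between stages, and all intervals are exact 95% Clopper-Pearson intervals that cover counting error only. In whole embryos, fewer cells of a type and less RNA per cell cannot be told apart. The libraries held 15503408 (day 5) to 21910029 (day 1) expected counts, the authors' estimated fragments per contig. A floor of 50 CPM corresponds to 775 counts in the smallest library and 1095 in the largest.

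An early vertebrate embryo starts with RNA that the mother placed in the egg, and later replaces it with RNA made from its own genome. Transcripts for functions that every cell needs, such as protein synthesis, energy metabolism and the cytoskeleton, are known as housekeeping transcripts, and steady ones are often used as references when samples are compared. Sequencing gives each transcript's share of a library and not its number of molecules, so "steady" always refers to a chosen scale. The files pair no contig with a gene name, and 0 of the identifiers match any of 45433 lamprey genes in the RefSeq table, so what the members encode is not described here.

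Together the members took a share of each library that stayed between 2.29% and 2.59%. In stage order the share was 2.29%, 2.48%, 2.59%, 2.49%, 2.40% and 2.43%. Day 1 was the lowest of the 6 (95% interval 2.29% to 2.30%) and day 2.5 the highest (2.58% to 2.60%). The intervals are narrow because the counts are pooled, and they say nothing of how libraries of 1 stage differ. The rule on each member also limits how far this share can move. The 1575 components at the floor, members included, took 50.5%, 54.4%, 54.1%, 62.2%, 59.8% and 54.5% in stage order. Near-constant components were thus a small part of what is abundant at every stage.

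The median member had 115, 129, 135, 123, 119 and 126 CPM in stage order. Individual members averaged 57.5 to 806 CPM over the 6 libraries, with a median of 123 CPM. Per length, on the scale of the deposited TPM summed by component, their means ran from 14.2 to 821 TPM with a median of 93.4. Most members were of moderate level. Of the 260 components at the floor with a mean of 50 to 100 CPM, 49 were members (18.8%), as were 58 of 625 (9.28%) with 100 to 200, 23 of 415 (5.54%) with 200 to 400 and 11 of 212 (5.19%) with 400 to 1000. None of the 63 with a mean of 1000 CPM or more was a member. In the lowest class the floor itself limits how far the ratio can go.

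The rule fixes the members' ratios, which are given as a description. The ratio of highest to lowest CPM had a median of 1.40 and ran from 1.13 to 1.4998. Over all 1575 components at the floor the median was 2.47, with quartiles of 1.86 and 3.49 and a maximum of 40.2. The limit cut through a continuous distribution. The 2 members nearest below it had ratios of 1.493 and 1.4998, and the 2 components nearest above had 1.5027 and 1.5028. At the other limit, the lowest level was 50.03 CPM for the member nearest above and 49.9 CPM for the component nearest below. Both limits depend on the day 1 library more than on any other: without it 250 components met them, against 172 to 208 without any other single library. Without the floor, 413 of 31146 components with 60 or more counts in total, 1.33%, were within the ratio. That ratio left out libraries without counts, so the 413 can include components absent at some stages.

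**Figure D1:**
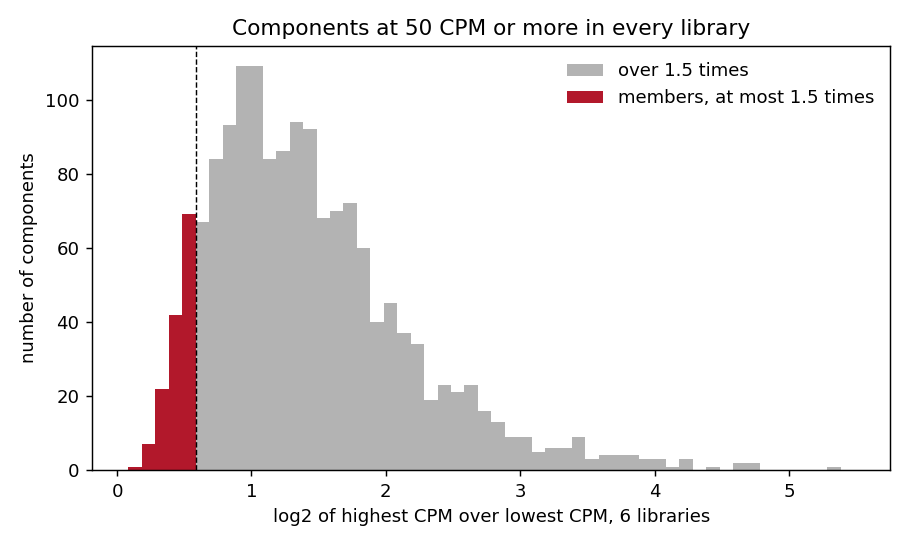
Number of components (vertical axis) by log2 of highest over lowest CPM across the 6 libraries, for the 1575 components at 50 CPM or more in each library. Red bars are the 141 members and the dashed line is the ratio of 1.5. The members form the left end of a single broad distribution whose median ratio is 2.47.

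The spread of the members over the days is given as a description, since the rule used the same values and no stage has a second library. The coefficient of variation over the days had a median of 12.7% (4.71% to 18.7%). The part of it that counting gives, at a member's lowest level, had a median of 2.21% and a maximum of 3.46%. How much libraries of 1 stage would differ is not known. For 57 members the upper limit of the ratio's interval passed 1.5, so that counting error alone leaves their place inside the rule unsettled. Each interval of a highest to lowest ratio takes those 2 libraries as given, although they were picked by their values. It does not allow for that choice. The steadiest member, a single contig of 1983 nt, had 63.7, 71.9, 65.5, 68.1, 63.7 and 66.7 CPM in stage order. Its ratio was 1.13 (1.05 to 1.22), with the highest value at day 2 and the lowest at day 1.

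In CPM, the scale on which the rule limits their changes, the members did not share a time course. The highest CPM lay at day 2.5 in 44 members, at day 5 in 28, at day 3 in 25, at day 4 in 18, at day 2 in 14 and at day 1 in 12. The lowest lay at day 1 in 50, at day 4 in 30, at days 3 and 5 in 22 each, at day 2 in 10 and at day 2.5 in 7. The 1434 components at the floor that were not steady showed the same leading days, with 376 highest at day 2.5 and 477 lowest at day 1. Day 5 was above day 1 in 87 members and below it in 54, with a ratio of day 5 to day 1 from 0.714 to 1.48 and a median of 1.04. The interval of that ratio lay above 1 in 62 members, below 1 in 39 and covered 1 in 40. These day 5 to day 1 counts were not set beside those of other components. They also use the levels that chose the members, so nothing is read from them. In 15 members days 1, 2 and 2.5 were each above days 3, 4 and 5, and in 9 members the later 3 days were each above the earlier 3. The same orders were found in 33.3% and 26.6% of the 1434 others at the floor, and in 35.5% and 19.9% of the 31146 components with 60 or more counts. The limit on the ratio leaves little room for either order in a member, so nothing is read from these counts.

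A single member was higher in CPM at each stage than at the stage before. It had 50.7, 50.8, 56.4, 57.5, 67.8 and 70.2 CPM in stage order. Its ratio was 1.38 (1.27 to 1.505), with the lowest value at day 1 and the highest at day 5. The counting error at its day 1 level was 3.00%, and a comparison of 2 days holds the error of both. The order of its days 1 and 2, of days 2.5 and 3 and of days 4 and 5 is therefore unsettled. In TPM it had 47.25, 44.86, 48.18, 46.92, 55.02 and 55.96 in stage order, which did not rise at every step. No member was lower at every step. Such courses were not counted in the other components, so nothing is read from these counts.

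The 4 members with the highest mean CPM were also the 4 named by a rule that takes the most abundant members above and below their day 1 level at day 5. The most abundant was lcl|comp277978_c0, with 2 contigs of 2861 and 2843 nt. It had 804, 904, 916, 815, 741 and 653 CPM in stage order, a mean of 806 ± 99.3 (SD over 6 days). Its highest values lay at days 2 and 2.5 and its lowest at day 5, which was 0.812 (0.793 to 0.832) of day 1.

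The second, lcl|comp292156_c0, was a single contig of 4293 nt. It had 679, 607, 721, 737, 683 and 805 CPM in stage order. Its day 5 library was 1.18 (1.16 to 1.21) times day 1, while day 2 was the lowest of the 6.

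The third, lcl|comp111424_c0, a single contig of 3088 nt, lay close to the limit of the rule. It had 581, 650, 601, 769, 742 and 850 CPM in stage order. Its 3 later libraries were each above its 3 earlier ones, and day 5 was 1.46 (1.43 to 1.498) times day 1.

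The fourth, lcl|comp293600_c5, had 7 contigs, the longest of 2979 nt. It had 760, 636, 723, 615, 693 and 550 CPM in stage order. Days 1 and 5 were the extremes, with day 5 at 0.723 (0.705 to 0.743) of day 1. The directions of all 4 named members are those of library sums. With DESeq2 size factors, described below, day 5 was above day 1 in all 141 members. It was above in 137 with TMM and in 50 with TPM.

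**Figure D2:**
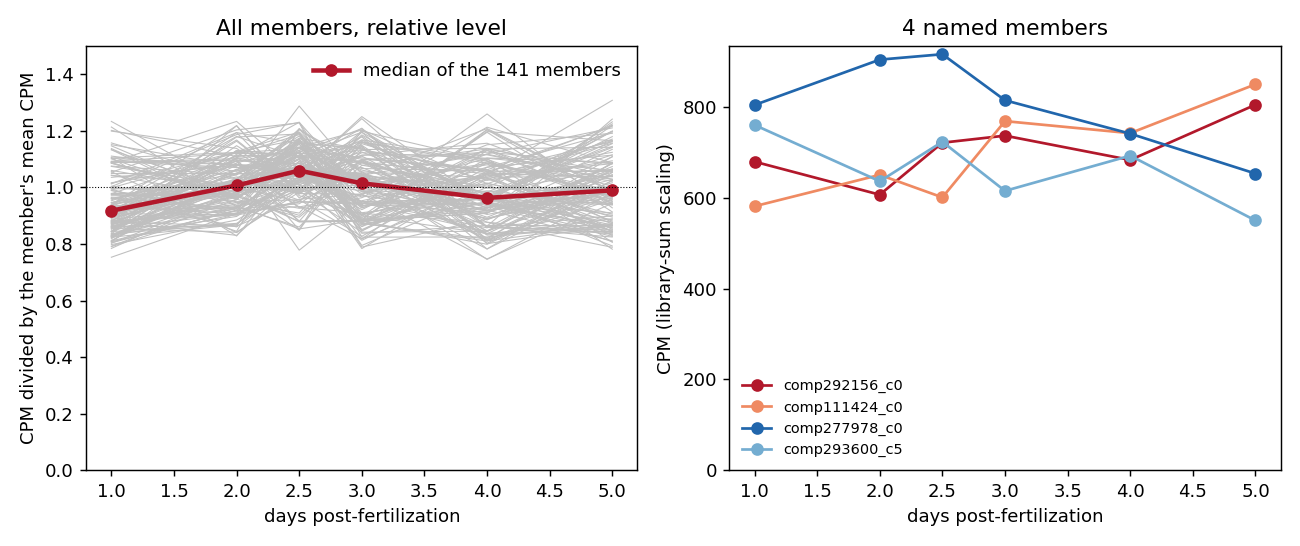
Left, CPM of each of the 141 members divided by its own mean over the 6 libraries (grey lines) and their median (red), against days after fertilization. Right, CPM of the 4 named members. All grey lines stay inside a band that the rule fixes, the median is lowest at day 1 and highest at day 2.5, and the named members lie between 550 and 916 CPM without a common shape.

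CPM does not correct for length, and the order of members by level differed between CPM and TPM. The longest member had a contig of 16247 nt. It had 115, 126, 124, 133, 103 and 129 CPM in stage order. In TPM it had 14.8, 15.4, 14.7, 14.8, 11.5 and 14.2 in stage order. Its ratio of highest to lowest was 1.29 in CPM and 1.34 in TPM, where its level was far below 50 TPM. It ranked 74 of 141 by mean CPM and last, 141, by mean TPM. The highest mean TPM, 821, belonged to a member with a longest contig of 1978 nt that ranked 7 by CPM.

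The members' number and length of contigs had medians close to those of the other components at the floor, and both medians were above those of all components with 60 or more counts. The members comprised 629 contigs, and 51 (36.2%) were single contigs while 90 (63.8%) had 2 or more. Of the other 1434 components at the floor 43.0% were single, against 57.0% of the 31146 components with 60 or more counts. The median was 2 contigs per component and the mean 4.46 in both the members and the others at the floor, against a median of 1 and a mean of 2.62 in the 31146. The median of the longest contig was 3172 nt in members (740 to 16247), 3209 nt in the others at the floor and 1292 nt in the 31146. CPM rises with contig length at a given number of molecules. How far this enters the difference in length was not tested.

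The member with the most contigs had 26. Components of 30 or more contigs were rare, 33 of the other 1434 and 168 of the 31146, so nothing is read from their absence here. In 3 members the longest contig reached 10000 nt, as it did in 20 of the others at the floor and 48 of the 31146. Of the 629 contigs, 75 had no counts in any library. The same held for 1015 of 6396 contigs of the others at the floor and 11322 of 81518 contigs of the 31146.

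Many member counts were not whole numbers. In 50 of the 51 single-contig members at least 1 library had an expected count over 0.005 away from the nearest whole number, as when fragments are divided with a contig of another component. The same held for 615 of the 617 single-contig components at the floor that were not steady. Among the 31146 it held for 10220 of 17742 single-contig components (57.6%). The members were near the others at the floor, so this trait is not read as specific to them. For 90 members (63.8%) another component carried the same first number in its identifier (comp, before the _c number), as it did for 52.1% of the others at the floor and 47.4% of the 31146, and 8 members formed 4 such pairs with each other. When counts were summed over the same first number, an alternative chosen after seeing the data, 38 of these 90 still met both limits. Summed this way 140 of 1716 units at the floor were steady, close to the 141 of 1575 components, but 52 of the 141 members had left the set.

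The division of a member's counts among its contigs was not used by the rule. Of the 90 members with 2 or more contigs, 33 (36.7%) had a different main contig, the contig with the most counts, at day 1 and day 5. The background was 39.2% of the 13404 such components with 60 or more counts, and 33.9% of the 817 at the floor that were not steady. The 13404, unlike the members and the 817, can include components without counts at a stage, whose main contig there is arbitrary. In a stricter count the day 1 main contig also lost 20 or more percentage points of its component. It held for 22 members (24.4%), against 26.1% of the 817 and 30.5% of the 13404. For both counts the members' share was near the comparison shares and no test was made, so neither is read as a result about the members. In 45 of the 90 the main contig was the same at all 6 days, against 53.7% of the 817 and 39.2% of the 13404.

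The part of a member's counts that had moved between contigs from day 1 to day 5 had a median of 25.2 percentage points (quartiles 12.5 and 39.3, maximum 90.5). It was 22.0 points in the 817 and 22.1 in the 13404. A component of the 13404 without counts at a compared stage entered such medians as no movement. From stage to stage the median movement in members was 7.55, 7.40, 16.8, 13.2 and 12.1 points over the 5 steps in turn. The widest step was the one from day 2.5 to day 3, as it was in the 817 (14.5 points) and in the 13404 (18.5 points). The main contig changed in 12, 13, 20, 21 and 19 of the 90 members over the same steps, or 13.3% to 23.3%. It changed in 13.1% to 23.4% of the 817, and in 27.7%, 23.6%, 29.9%, 27.7% and 26.8% of the 13404 in turn.

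Of the 482 contigs of members with 60 or more counts in total, 73 (15.1%) were 4-fold or more higher at day 5 than at day 1 and 72 (14.9%) were 4-fold or more lower. The background over all 47521 contigs was 16.0% higher and 19.2% lower, and in the 4566 contigs of the others at the floor it was 19.2% and 15.7%. The 482 include the contigs of single-contig members, which the rule keeps from such a fold. Without them the shares were 16.9% and 16.7% of 431 contigs, near the background. A contig counted here when its fold on the log2(CPM + 0.5) scale passed 4 and its counting interval excluded 1. All 145 such contigs lay in 57 of the 90 members with 2 or more contigs. In 26 of the 90 (28.9%) at least 1 contig was 4-fold higher and another 4-fold lower, against 22.4% of the 817 components at the floor and 6.34% of the 13404. The rule favours such opposite changes, since a large rise in 1 contig must be offset to keep the sum within 1.5 times. Components of 5 or more contigs also made up 30.5% of members, 24.3% of the others at the floor and 11.3% of the 31146. Nothing is therefore read from this share or from the near balance of higher and lower contigs. The pseudocount matters for these counts: with 5 CPM in place of 0.5, 48 contigs remained past the fold.

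The clearest exchange was in a member of 5 contigs that ranked 7 by mean CPM. Its sum was 439, 464, 473, 546, 526 and 564 CPM in stage order. Its 986 nt contig had 20.8, 42.0, 58.7, 384, 481 and 508 CPM in stage order. The 1978 nt contig had 330, 344, 314, 123, 34.6 and 48.5 CPM in stage order. The short contig was low in the 3 early libraries and high in the 3 late ones, and the long contig was the reverse. The 986 nt contig went from 4.73% (4.31% to 5.17%) of the component's counts to 90.1% (89.4% to 90.7%), and the 1978 nt contig from 75.1% to 8.60%. In TPM, which corrects for length, the same member was not within the ratio: it had 620, 634, 656, 966, 1011 and 1041 in stage order.

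A member of 7 contigs also had some contigs that differed between early and late libraries. Its sum was 210, 265, 248, 196, 183 and 244 CPM in stage order. Its contig with the most counts, of 4217 nt, was present throughout, with 34.7%, 33.6%, 48.4%, 35.6%, 22.6% and 15.5% in stage order. Its 5997 nt contig held 55.1%, 58.9%, 44.1%, 14.9%, 5.94% and 1.46% of the counts in stage order. A 4270 nt contig had 0 counts at day 1 and, over the later 3 stages, 29.6, 62.8 and 93.6 CPM. Set against 3 counts in the day 1 library as the floor, its day 5 level was 684-fold higher. The lower limit of the counting interval, from the 0 counts at day 1, was 556-fold. This contig was thus near or at 0 in the 3 early libraries and well counted in the 3 late ones. How far the division of fragments between it and the 4217 nt contig sets these values was not tested.

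The member with the largest movement, 90.5 points, had 16 contigs, not all of which divided into early and late. Its 6559 nt contig held 7.35%, 7.96%, 19.6%, 76.5%, 34.9% and 75.4% in stage order, higher in each late library than in any early one. In this contig days 3 and 5 resembled each other and day 4 lay between them and the earlier days. A 6589 nt contig instead held 4.54%, 7.55%, 10.3%, 0%, 10.5% and 0% in stage order. The member's 16 contigs were 5438 to 5528 nt or 6559 to 6703 nt long. How far RSEM's division of shared fragments among contigs sets such shares was not tested.

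**Figure D3:**
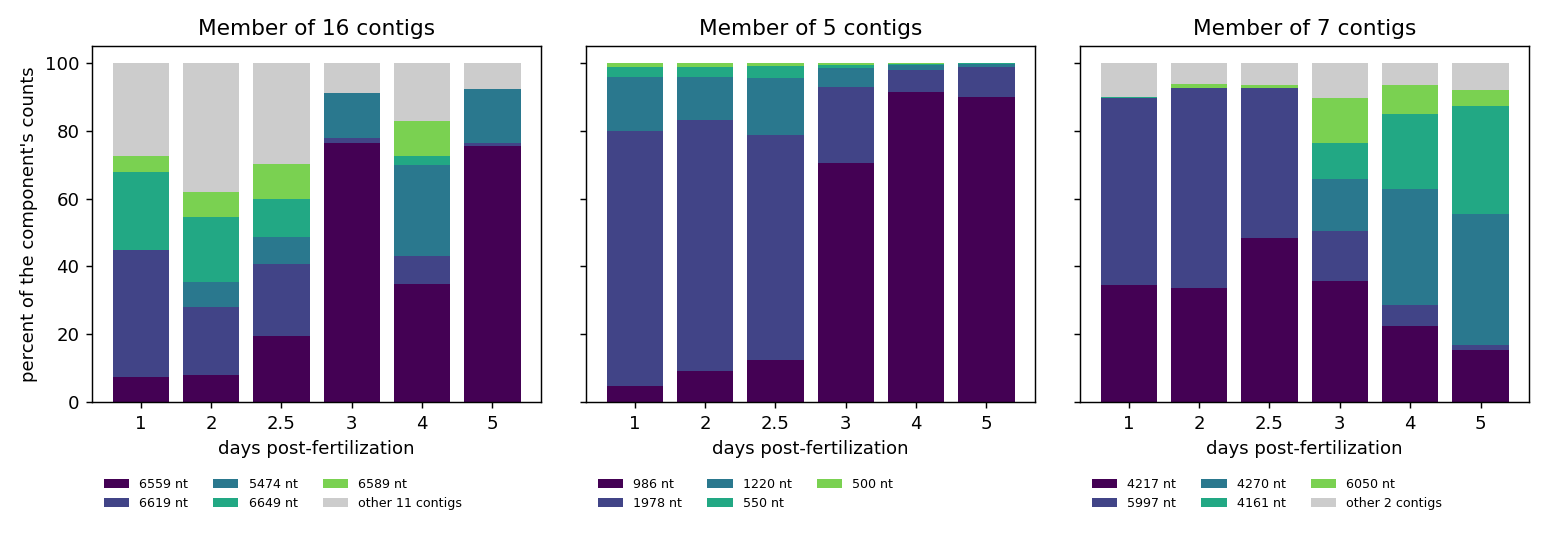
Percent of a component's counts (vertical axis) held by each contig at each day, for the 3 members in which the most counts moved between contigs from day 1 to day 5. Colours are the 5 contigs with the most counts, by length, and grey is the rest. In the middle panel the 986 nt contig goes from 4.73% to 90.1% while the component's sum stays within the rule.

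The named members differed in the same respect. In lcl|comp277978_c0 the 2861 nt contig held 100% of the counts at days 1, 2, 4 and 5, with 89.7% at day 2.5 and 73.4% at day 3, where the 2843 nt contig took the rest. In lcl|comp293600_c5 the 2979 nt contig held 49.1%, 67.0%, 62.8%, 39.7%, 16.2% and 14.0% in stage order. Over the same days its 2509 nt contig went from 5.45% to 24.6%. The member with 26 contigs had 144, 158, 171, 153, 145 and 130 CPM in stage order, and its contig with the most counts over all libraries held 25.6% to 35.3% of them. Its main contig at day 1, of 3866 nt, was less even, with 48.2%, 29.0%, 46.6% and 14.9% over the first 4 stages and 22.5% at day 5. It had 0 counts at day 4, where 3 counts would be a share of 0.104%.

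Some contigs in these data have libraries of days 1, 2.5 and 5 that stand apart from those of days 2, 3 and 4, a split first seen in the counts themselves. In members 4 of 482 contigs (0.830%) had the 2 sets of libraries 4-fold apart with no overlap, in 4 different members. The background over all 47521 contigs was 0.442%, and contigs of the other components at the floor had 1.31%. Without the contigs of single-contig members, which the rule keeps from such a fold, the share was 0.928% of 431. The sums of all 4 members stayed within the ratio of 1.5, as the rule requires. Other divisions of the 6 libraries were not counted, so nothing is read from these shares.

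Which components are steady depended on the scaling far more than their number did. With TMM factors, which rescale library sums on the assumption that most components keep their level, 135 of 1611 components met both limits. With DESeq2 size factors there were 124 of 1589, and with the deposited TPM, at a floor of 50 TPM, 150 of 1423. The identity of the components was largely different. With TMM 36 of the 141 members met the limits (25.5% of the members and 26.7% of the TMM set), with DESeq2 14 (9.93% and 11.3%) and with TPM 70 (49.6% and 46.7%). In all, 354 components were steady under at least 1 of the 4 scalings and 2 under all 4.

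By construction, a component steady under library sums takes on the inverse of any other factors. TMM factors were 1.15, 1.15, 1.204, 0.877, 0.819 and 0.874 in stage order, a range of 1.47 times. The DESeq2 factors, relative to the library sums, were 1.22, 1.22, 1.23, 0.855, 0.738 and 0.867 in the same order, a range of 1.67 times, wider than the whole ratio that the rule allows. The median member was at 0.922, 1.01, 1.06, 1.02, 0.969 and 0.998 of its own geometric mean, a range of 1.15 times. Both sets of factors divide the series between days 2.5 and 3. The members' CPM does not, and the limit on their ratio leaves it little room to do so.

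Under TMM the same 141 members had a median ratio of 1.70 and under DESeq2 1.85, with maxima of 2.10 and 2.46. Their 3 later libraries were each above the 3 earlier ones in 105 members with TMM and in 128 with DESeq2. The share was 37.6% and 40.5% of the 1434 others at the floor, and 27.4% and 29.2% of the 31146. These member counts follow from choosing components that are flat under library sums and then dividing by such factors, and are given as arithmetic. The direction of the members between day 1 and day 5 therefore differed between scales. Their median log2 ratio of day 5 to day 1 was 0.06 with library sums, 0.45 with TMM, 0.55 with DESeq2 and -0.19 with TPM. The median of all 31146 components was -0.05, 0.22, 0.30 and -0.27 on the same scales, with 0.5 added to each level.

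**Figure D4:**
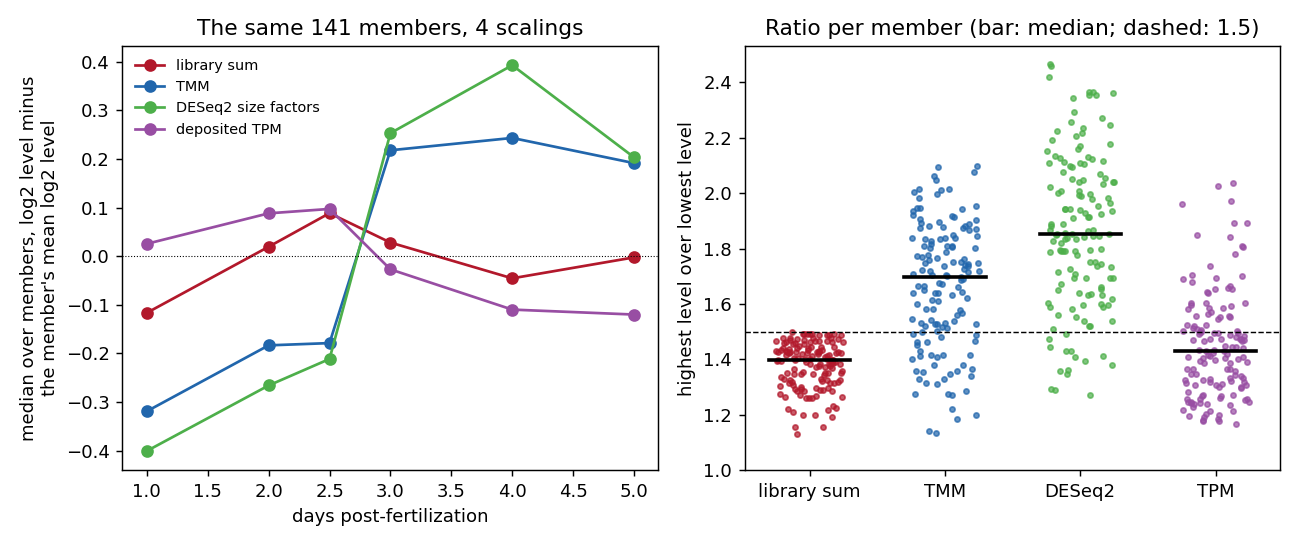
Left, the median over the 141 members of log2 level minus the member's own mean log2 level, against days after fertilization, with library sums, TMM, DESeq2 size factors and deposited TPM. Right, highest over lowest level for each member under each scaling, with the median as a bar and the limit of 1.5 as a dashed line. TMM and DESeq2 lift days 3 to 5 above days 1 to 2.5, and TPM does the opposite by a smaller amount.

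TPM differs from CPM in 2 respects. The ratio between CPM per kilobase of effective length and TPM, as a median over 1126 contigs with 1000 or more counts in every library, was 0.907 of its geometric mean at day 1 and 1.07 at day 5, a range of 1.18 times. The other respect is the length of the contigs used, and its part in the ratios below was not tested. In the 51 single-contig members the median TPM ratio of highest to lowest was 1.34, and 44 stayed within 1.5. In the 90 members with 2 or more contigs it was 1.48, and 50 stayed within 1.5, although the median CPM ratio was 1.40 in both. The largest TPM ratio was 1.69 among the former and 2.04 among the latter.

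The 2 members steady under all 4 scalings were lowest at day 4 in CPM and in TPM. With TMM and with DESeq2 the lowest library was day 2.5 for the first and day 1 for the other, and the highest was day 3 for both. The first, a single contig of 1889 nt, had 188, 188, 189, 188, 146 and 177 CPM in stage order. Its ratios were 1.30 with library sums, 1.36 with TMM, 1.43 with DESeq2 and 1.49 with TPM. The other, with 19 contigs, had 163, 170, 171, 160, 123 and 159 CPM in stage order. Its ratios were 1.39, 1.29, 1.39 and 1.43 in the same order. The steadiest member by CPM was not among them: its ratio of 1.13 was 1.43 with TMM, 1.65 with DESeq2 and 1.24 with TPM.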

How the data were processed

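Whole-embryo RNA was sequenced as paired-end libraries with 1 library per stage, per the labels' protocols. The authors' expected counts, deposited per contig, were made with RSEM, per the submitters' processing notes, and are not normalized. Which RSEM version, aligner and assembler were used is not given in the sources used here. The authors' deposited TPM, per the file headers, corrects for effective length and adds up to the same total in each library. It served as an alternative. The deposited FPKM was not used.

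Counts were summed by component without rounding and divided by library sums of 15503408 to 21910029. Counts were rounded for intervals and for the minimum of 60 counts. TMM factors came from edgeR 4.0.16 and size factors from DESeq2 1.42.0 (R 4.3.3), on rounded component counts. The latter were rescaled to the geometric mean of the library sums. Python 3.11.15, numpy 2.4.6, pandas 2.3.3 and scipy 1.17.1 did the rest. The rule and the fold limits were tested on simulated data that held counting error only. That simulation does not cover differences between libraries of 1 stage or RSEM's division of fragments. Up to 4 members are named: the 2 with the highest mean CPM above, and the 2 below, their day 1 level at day 5. Other members are described by their place in an order, and those picked for contig movement or for a rising course were chosen after their values were seen. The members, limits and comparisons were chosen with earlier results of these data known.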

Additional observations from a re-analysis of the deposited data

How the results depend on the processing

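The number of members, 141, stayed within 1.5 times (94 to 208) under the alternatives not listed next, which says nothing of which components they were. It became 228 with a floor of 20 CPM, 78 with 100 CPM and 413 with no floor, where the ratio left out libraries without counts. It was 5 with a ratio of at most 1.2, 511 with at most 2, and 89 for single contigs. Leaving out 1 library at a time gave 172 (without day 2) to 250 (without day 1), since a rule over 5 libraries is looser. The members' median ratio, 1.40, became 1.70 under TMM, 1.85 under DESeq2 size factors and 1.43 under TPM. Their median log2 ratio of day 5 to day 1, 0.06, became 0.45 under TMM, 0.55 under DESeq2 and -0.19 under TPM. The share of members with another main contig at day 5, 36.7%, was 24.4% when a loss of 20 points was required. The 145 contigs changed 4-fold became 48 with a pseudocount of 5 CPM. Without the most abundant component in the library sum there were 169 members, of which 136 were among the 141, and without the top 100 there were 176, of which 94 were. Summing by the first number of the identifier and limiting TPM within the members were added after seeing the data. No paired analysis was possible because there was no second library of any stage.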
